A study of Mus musculus with 6 samples.

Results

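The paralogous miR-23/27/24 clusters give 5 mature microRNAs (miRNAs), mmu-miR-23a, mmu-miR-23b, mmu-miR-27a, mmu-miR-27b and mmu-miR-24 (written below without the mouse prefix), and they were followed on one-colour arrays of MCT, a tubular line from mouse kidney with the strain background SJL H-2S. The 5 were taken by name from the 611 mouse miRNA entries of the array, without star forms (the passenger arms of the same hairpins), and all 5 were found and tested among 84 miRNAs. RNA came from cells stimulated with TGFβ (transforming growth factor beta, given as TGFbeta in the labels) at 3 ng/ml for 72 hours (3 arrays) and from control cells (3 arrays). The labels give both groups the same culture text, growth in 10% fetal calf serum and a change to 0.5% serum the day before TGFβ was added. Each array received Cy3-labelled RNA made from 100 ng. Separate cultures are not stated for the replicates of a group, so the p-values below rest on a spread between samples that may be technical.

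An animal miRNA pairs with messenger RNAs mainly through its seed, bases 2 to 8 from the 5′ end, and lowers their translation and stability. The miR-23/27/24 genes sit in a pair of clusters, each transcribed as one precursor from which several hairpins are cut, and later steps can set the mature forms apart in level. In fetal mouse liver cells the b cluster has been reported to target Smads, the signal carriers of TGFβ receptors, miR-27 is known in mouse preadipocytes for restraining adipogenesis through Pparg, and in mouse myoblasts TGFβ has been reported to repress miR-24. In the RefSeq gene table (GRCm38.p6), Mir23a, Mir27a and Mir24-2 lie within 404 bases of each other on chromosome 8 (the a cluster), and Mir23b, Mir27b and Mir24-1 within 792 bases on chromosome 13 (the b cluster), inside the protein-coding gene Aopep. The array files name another build, so no coordinates are given.

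Mature sequences are shown because the paralogues differ by so little that a probe has few bases with which to tell them apart, and because the seeds group them. RefSeq (GRCm38.p6) gave a mature sequence for 4 of the 5 members, and for miR-128. Capitals mark the seed.
miR-23a: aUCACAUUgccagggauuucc
miR-27a: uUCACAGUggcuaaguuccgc
miR-27b: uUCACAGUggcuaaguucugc
miR-24: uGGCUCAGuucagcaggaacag
miR-128: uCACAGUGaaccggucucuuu
Counting from the 5′ end, miR-27a and miR-27b share their seed and differ by a single substitution over 21 bases, C19U, near the 3′ end. The seeds of miR-23a and miR-27a differ by U7G. miR-24 has an unrelated seed, and since Mir24-1 and Mir24-2 encode the same mature sequence, its signal cannot be divided between the clusters. The seed of miR-128 equals bases 3 to 9 of miR-27a, with 0 differences over 7 bases, but miR-128 was well above background on none of the 6 arrays (8 of 120 spots).

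The number of mouse miRNAs well above background was 86 to 103 on the TGFβ arrays and 74 to 86 on the control arrays. Control 1 stood apart from the other controls: its median absolute log2 difference over the 84 tested miRNAs was between 0.16 and 0.26 to the 3 TGFβ arrays, and 0.48 and 0.52 to controls 2 and 3, which differed from each other by 0.058. TGFβ 1 stood apart in another way, with 23 of the 611 entries at least 2 log2 units above every other array, against 0 or 1 on each of the others. The main comparisons are given with and without control 1, and one also without TGFβ 1. Of 9 miRNAs listed as tubular epithelium markers, such as miR-192 and miR-200a, 0 were well above background on any array, so the labelled tubular origin is not visible in them. Likewise 0 of 5 mesenchymal markers on the array, 0 of 6 blood cell markers and 0 of 2 endothelial markers were well above background on any array. Of 8 muscle, neuron, liver and islet markers, 1 (miR-206, a muscle miRNA) was well above background, on 4 arrays. miR-206 read 4.64, 4.83 and 4.43 on TGFβ 1 to 3, against 4.52, 3.79 and 3.78 on controls 1 to 3, a log2 difference of 0.60 (limma adjusted p = 0.391). Without control 1 it was 0.84 (limma adjusted p = 0.0157), a call in the same fit that calls members, and its part in their results was not tested.

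All 5 members were well above background on all 6 arrays. Values are log2 of scaled signal unless stated. A scaled signal is the fluorescence intensity averaged over the spots and probes of a miRNA, divided by the array's 75th percentile over bright probes and put back on a common scale. Levels of different miRNAs are not ranked, because probes bind with different strength.

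In the b cluster, miR-23b read 5.43, 5.70 and 5.62 on TGFβ 1 to 3, against 5.46, 6.29 and 6.35 on controls 1 to 3. Controls 2 and 3 were above every TGFβ array, and control 1 lay between TGFβ 1 and TGFβ 3, so the groups overlapped. miR-27b, its neighbour, read 4.49, 4.08 and 4.03 on TGFβ 1 to 3, against 4.06, 5.28 and 5.15 on controls 1 to 3. The same 2 controls were high, and control 1 again fell inside the range of the TGFβ arrays.

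In the a cluster, miR-23a read 7.63, 7.81 and 7.69 on TGFβ 1 to 3, against 7.49, 7.80 and 8.0 on controls 1 to 3. Here control 1 was the lowest of all arrays, control 3 the highest, and the other 4 lay between 7.63 and 7.81. miR-27a read 8.37, 7.79 and 8.34 on TGFβ 1 to 3, against 7.89, 8.43 and 8.57 on controls 1 to 3. Controls 2 and 3 lay above every TGFβ array for miR-27a too, control 2 (8.43) by a narrow margin over TGFβ 1 (8.37). TGFβ 2 and control 1 were both low for miR-27a, and these are the arrays that share slide column 1. miR-24, made by both clusters, read 8.26, 8.17 and 8.08 on TGFβ 1 to 3, against 8.10, 8.54 and 8.55 on controls 1 to 3. As for miR-23b, controls 2 and 3 lay above the TGFβ arrays and control 1 among them.

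**Figure D1:**
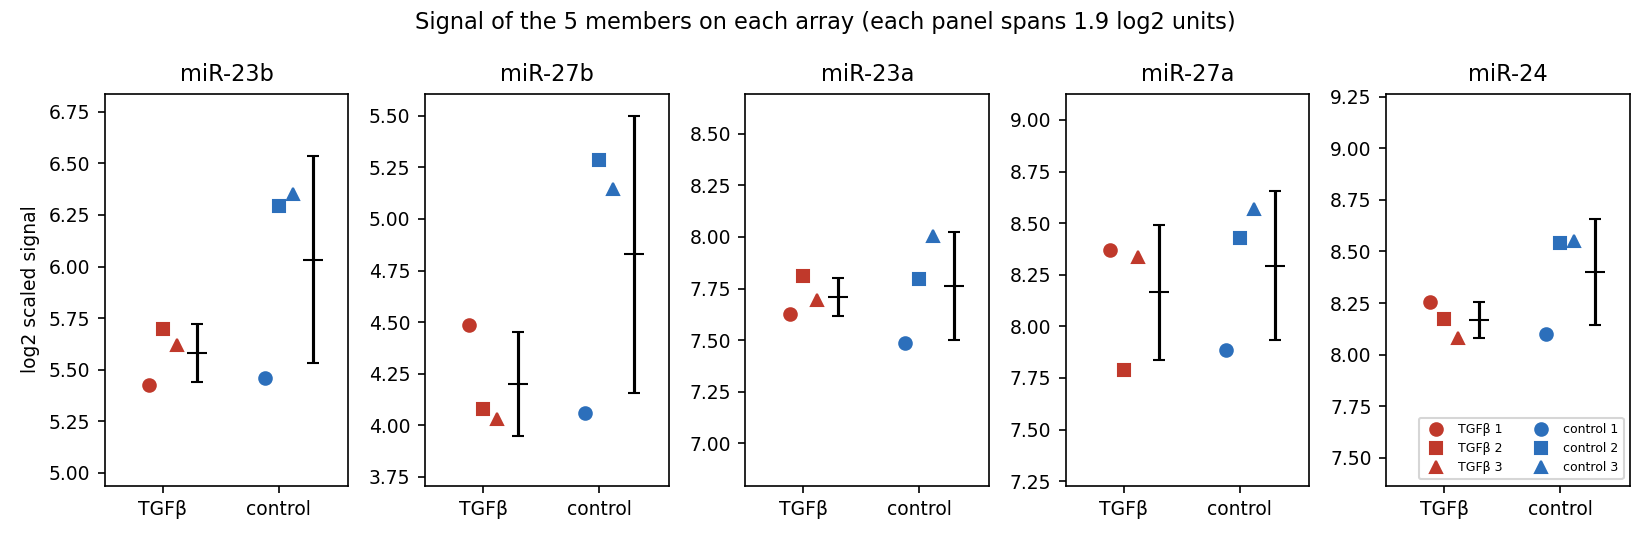
Log2 scaled signal (vertical axis) of each member on the 3 TGFβ arrays (red) and the 3 control arrays (blue), with the mean and SD of each group as black bars and marker shapes for replicate numbers. Controls 2 and 3 sit above the TGFβ arrays for miR-23b, miR-27b, miR-27a and miR-24, but not for miR-23a. Control 1 (blue circle) sits among or near the TGFβ arrays in every panel.

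With all 6 arrays the differences were largest in the b cluster, and no member passed the test. miR-27b averaged 4.20 ± 0.25 in TGFβ-treated cells and 4.83 ± 0.67 in control cells (SD, n = 3 each), a log2 difference of -0.63 (SE 0.36, 95% interval -1.51 to 0.25, limma adjusted p = 0.433). miR-23b averaged 5.58 ± 0.14 in TGFβ-treated cells and 6.03 ± 0.50 in control cells (SD, n = 3 each), a log2 difference of -0.45 (SE 0.27, 95% interval -1.12 to 0.21, limma adjusted p = 0.433). Ordered from the lowest difference upward, miR-27b was number 2 and miR-23b number 10 among the 84 tested miRNAs. The value for miR-24 was -0.23 (SE 0.18, 95% interval -0.66 to 0.20, limma adjusted p = 0.50), for miR-27a -0.13 (SE 0.26, 95% interval -0.76 to 0.51, limma adjusted p = 0.775) and for miR-23a -0.051 (SE 0.18, 95% interval -0.49 to 0.38, limma adjusted p = 0.851).
Over all tested miRNAs limma called 0 of 84 (0%) at an adjusted p under 0.05 and 8 (9.52%) at an unadjusted p under 0.05, of which 0 were members. With the replicate number as a block, limma called 1 of 84 (1.19%), which was not a member. TGFβ and control arrays were fully apart for 0 of 5 members, against 5.95% of the tested miRNAs on the lower side and 8.33% on the higher. The members' median difference was -0.23, and the median over all 84 was -0.09.

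Without control 1 all 5 members had lower means in TGFβ-treated cells, and the b cluster pair and miR-24 passed the test. miR-27b differed by -1.02 (SE 0.18, limma adjusted p = 0.0157), which is 0.492 times its level on controls 2 and 3. miR-23b differed by -0.75 (SE 0.13, limma adjusted p = 0.0157), or 0.596 times. miR-24 differed by -0.38 (SE 0.11, limma adjusted p = 0.0484), or 0.766 times, and it missed the threshold (-0.38, limma adjusted p = 0.063, 34.1% of tested miRNAs called) when the scaling of all 6 arrays was kept. The a cluster pair did not pass: miR-27a differed by -0.34 (SE 0.22, limma adjusted p = 0.281) and miR-23a by -0.19 (SE 0.13, limma adjusted p = 0.277).
In this fit limma called 31 of 85 miRNAs (36.5%), 20 of them lower (23.5%), so that 3 of 5 members called stands beside a large share called in general. On the scaling of all 6 arrays, TGFβ and control arrays did not overlap for 4 of 5 members on the lower side (all but miR-23a). This stands against 42.4% of tested miRNAs lower and 27.1% higher. The members' median was -0.38 and that of all 85 miRNAs -0.087. Control 1 was left out because it lay near the TGFβ arrays, and the adjusted p-values do not allow for that choice. Leaving out any other single array gave 0 calls in limma (0 to 5 at an unadjusted p under 0.05). With TGFβ 1 also left out, the same 3 members passed in limma, at -1.16 for miR-27b (adjusted p = 0.00472), -0.66 for miR-23b (adjusted p = 0.012) and -0.42 for miR-24 (adjusted p = 0.027), among 35 of 85 called (41.2%). With all 6 arrays weighted by their spread, limma called 45 of 84 (53.6%), with miR-27b (-1.08), miR-23b (-0.70) and miR-24 (-0.41) among them. Such weights are estimated from the same arrays and count an array less the more it departs from its group. These 3 values lie nearer those without control 1 than those of the unweighted fit, so they are no separate support.

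**Figure D2:**
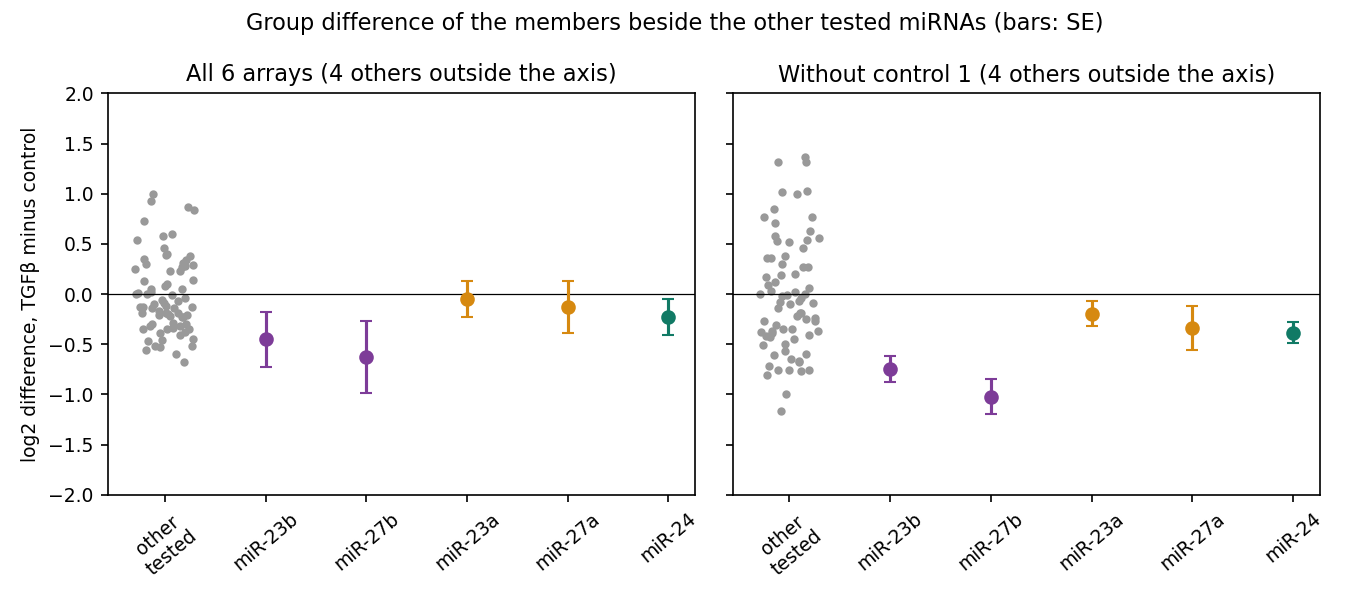
Log2 difference, TGFβ minus control (vertical axis), of each member with its SE (coloured, b cluster purple, a cluster orange, miR-24 green) beside the other tested miRNAs (grey points) with all 6 arrays (left) and without control 1 (right). The b cluster pair lies lowest of the members on both sides, at -0.63 and -0.45 on the left and -1.02 and -0.75 on the right, and 4 grey points fall outside the axis in each panel.

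The size and sign of these differences depended on the scaling between arrays, for which the factors of controls 2 and 3 (1.22 and 1.31) were above those of the other 4 arrays (0.81 to 0.96). Without scaling the median of all tested miRNAs moved by 0.35, and miR-24 (0.12), miR-27a (0.22) and miR-23a (0.29) turned positive, while miR-23b (-0.11) and miR-27b (-0.28) stayed negative. Relative to the median of the tested miRNAs, the values were -0.54 for miR-27b, -0.36 for miR-23b, -0.14 for miR-24, -0.039 for miR-27a and 0.039 for miR-23a. They are the same without scaling by construction, since a scale factor shifts all miRNAs of an array alike. With quantile normalization miR-27b (-0.70) and miR-23b (-0.59) kept their direction, and both a cluster members were slightly positive (0.065 for miR-27a and 0.020 for miR-23a). Set against the median in that setting, miR-27b was -0.53, miR-23b -0.42, miR-24 0.056, miR-27a 0.24 and miR-23a 0.19. Without control 1 and without scaling, 0 of 5 members passed in limma, which called 20 of 85 (23.5%). Without control 1 and with quantile normalization, miR-27b passed (-1.04, limma adjusted p = 0.0177) and the other 4 members did not, among 9 of 85 called (10.6%).

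Ratios within an array do not depend on that scaling, and they set the b cluster against the a cluster directly. Their absolute size mixes amount with probe strength, so only their change between groups is read. The log2 ratio of miR-23b over miR-23a was -2.20, -2.11 and -2.07 on TGFβ 1 to 3, against -2.03, -1.50 and -1.65 on controls 1 to 3. Every TGFβ array was below every control array, control 1 by the smallest margin. The means were -2.13 ± 0.065 in TGFβ-treated cells and -1.73 ± 0.27 in control cells (SD, n = 3 each), a change of -0.40 (SE 0.16, two-sided exact permutation p = 0.1, the smallest that 3 arrays against 3 can give). With the brightest probe of each miRNA alone, the change was -0.42 and the groups overlapped (exact permutation p = 0.2). The log2 ratio of miR-27b over miR-27a was -3.88, -3.71 and -4.30 on TGFβ 1 to 3, against -3.83, -3.14 and -3.42 on controls 1 to 3. The groups overlapped through TGFβ 2 and control 1, and the change was -0.50 (SE 0.27, exact permutation p = 0.2).
Within clusters, miR-27b over miR-23b changed by -0.18 (SE 0.25, exact permutation p = 0.6) and miR-27a over miR-23a by -0.078 (SE 0.25, exact permutation p = 1). Whether paralogue ratios moved more than these was not tested, and the order of the changes depended on the arrays: without TGFβ 1, miR-27b over miR-23b changed by -0.40 and miR-23b over miR-23a by -0.37. Over the 4 ratios the adjusted exact permutation p was 0.4 for both paralogous pairs, 0.8 and 1 for the others, so none passed. Without control 1 the changes were -0.55 (SE 0.085) for miR-23b over miR-23a and -0.68 (SE 0.23) for miR-27b over miR-27a, each with no overlap of the groups and an exact permutation p of 0.1, again the smallest possible, and -0.27 and -0.14 for the b and a cluster neighbours. Other settings gave smaller paralogue changes. Without control 2 they were -0.29 for miR-23b over miR-23a and -0.34 for miR-27b over miR-27a (exact permutation p = 0.1 and 0.4), without TGFβ 3 miR-27b over miR-27a gave -0.33, and with normexp background correction they were -0.28 and -0.27.

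**Figure D3:**
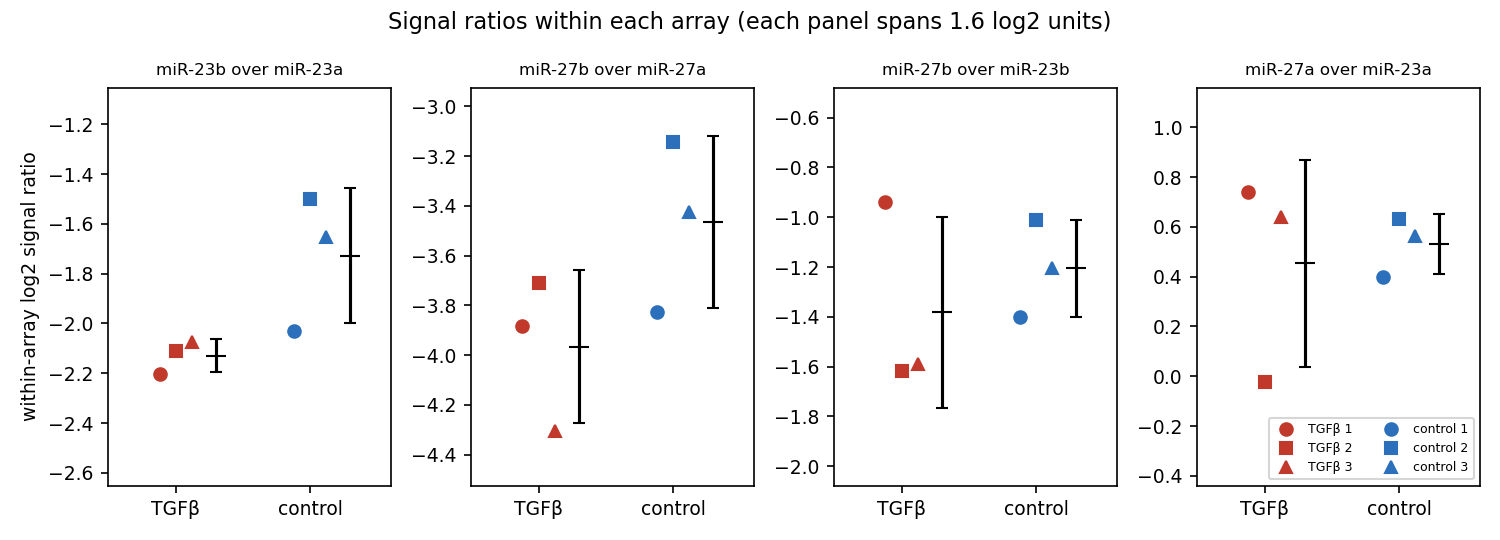
Within-array log2 signal ratio (vertical axis) for the pairs of paralogues (left panels) and for neighbours of one cluster (right panels) on TGFβ (red) and control (blue) arrays, with group mean and SD in black. For miR-23b over miR-23a the TGFβ arrays lie between -2.20 and -2.07, below all controls, and for both within-cluster ratios the groups overlap.

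Each member was read by 2 probes of 10 spots, and both probes were well above background for miR-23a, miR-27a and miR-24 only. For miR-27b the brighter probe (A_54_P1009, 84.6% of the summed scaled signal of both) differed by -0.66. The dimmer probe (A_54_P1010) was well above background on 0 arrays (0 of 60 spots) and gives no second reading, so the miR-27b result rests on the brighter probe, where 55 of 60 spots were well above background. These were 8 of 10 on control 1, 7 of 10 on TGFβ 2 and 10 of 10 on each other array. The coefficient of variation between spots of this probe was 31.6% on control 1 and 28.5% on TGFβ 2, against 8.07% to 17.2% elsewhere. For miR-23b likewise, the brighter probe (A_54_P1007, 60 of 60 spots well above background) differed by -0.46, and the dimmer (A_54_P1008, 7 of 60 spots) was well above background on 0 arrays.
Both probes of miR-23a, miR-27a and miR-24 were well above background at 60 of 60 spots. Their differences were -0.045 and -0.088 for miR-23a, -0.13 and -0.092 for miR-27a, and -0.26 and -0.17 for miR-24, the brighter probe first. With the 2 dim probes set aside, by taking the brightest probe of each miRNA and leaving out control 1, miR-27b (-1.04), miR-23b (-0.76) and miR-24 (-0.40) passed in limma (adjusted p = 0.0134, 0.0154 and 0.0334), among 33 of 85 called (38.8%). How far a probe for one paralogue also binds the other was not tested.

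**Figure D4:**
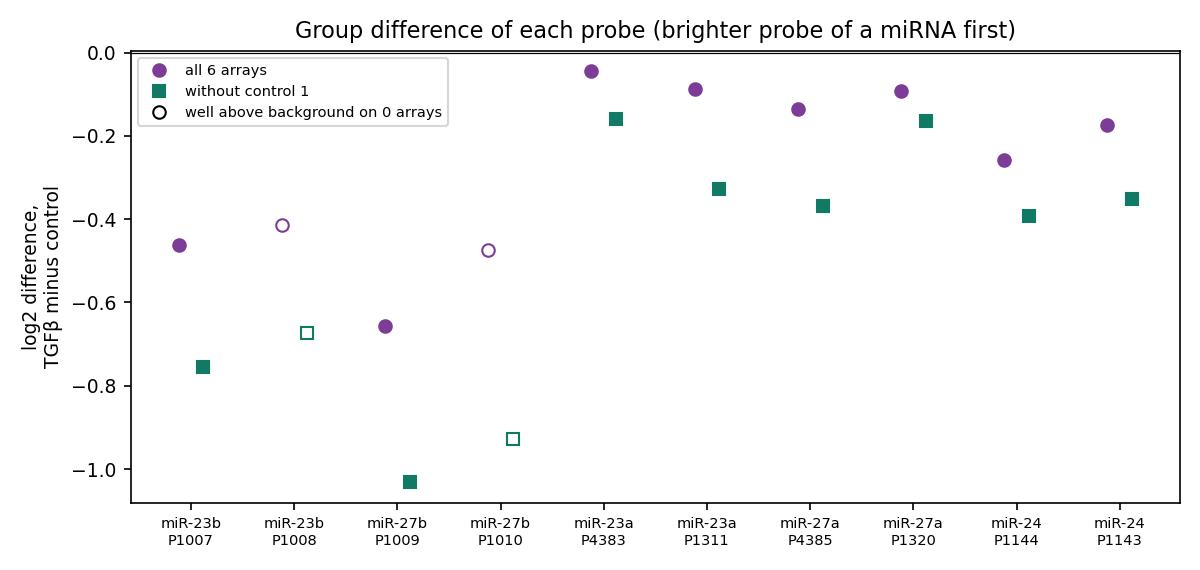
Log2 difference, TGFβ minus control (vertical axis), of each of the 10 member probes with all 6 arrays (circles) and without control 1 (squares), both on the scaling of all 6 arrays, with open symbols for probes well above background on 0 arrays. The 8 probes well above background (filled) lie below 0, those of miR-27b and miR-23b lowest, at -0.66 and -0.46 with all 6 arrays, and the open symbols give no reading of their own.

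On TGFβ 2 and control 1, where miR-27a was low, its spots differed by their place on the array. Of the 10 spots of the brighter probe (A_54_P4385), 6 lie in the first 20 of 82 grid columns. In processed signal those 6 averaged 362 on TGFβ 2, against 557 for the other 4 spots, and on control 1 they averaged 334, against 541. On the remaining arrays, with outlier-marked spots left out, the 2 sides were closer: 606 and 602 on TGFβ 1, 565 and 564 on TGFβ 3, 472 and 488 on control 2, and 469 and 512 on control 3. Over all probes well above background on every array, the median ratio of these first columns to the rest was 0.855 on TGFβ 2 and 0.807 on control 1, and between 0.956 and 1.02 on the other 4 arrays, so both arrays of slide column 1 share a dim side. The median coefficient of variation between spots of a probe was also highest there, 13.0% on TGFβ 2 and 14.0% on control 1, against 7.0% to 7.81% elsewhere.
Without the spots of those columns, an alternative added after seeing the data, miR-27a read 8.40, 7.98 and 8.38 on TGFβ 1 to 3, against 8.10, 8.51 and 8.66 on controls 1 to 3. TGFβ 2 and control 1 were still the lowest arrays, and the group difference was -0.17 (SE 0.22). miR-27b then differed by -0.61, miR-23b by -0.47, miR-24 by -0.24 and miR-23a by -0.055. The ratio of miR-23b over miR-23a changed by -0.41 (SE 0.15, exact permutation p = 0.1) without these spots. For miR-27b over miR-27a the change was -0.44 (SE 0.30, exact permutation p = 0.3), so its groups still overlapped. Leaving out control 1 as well, miR-27b (-1.02, adjusted p = 0.0255), miR-23b (-0.77, adjusted p = 0.0171) and miR-24 (-0.42, adjusted p = 0.0459) passed in limma, among 29 of 85 called (34.1%). On control 1 miR-27b read 4.03 and miR-23b 5.47 without these spots, and so control 1 stayed near the TGFβ arrays for the b cluster.

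**Figure D5:**
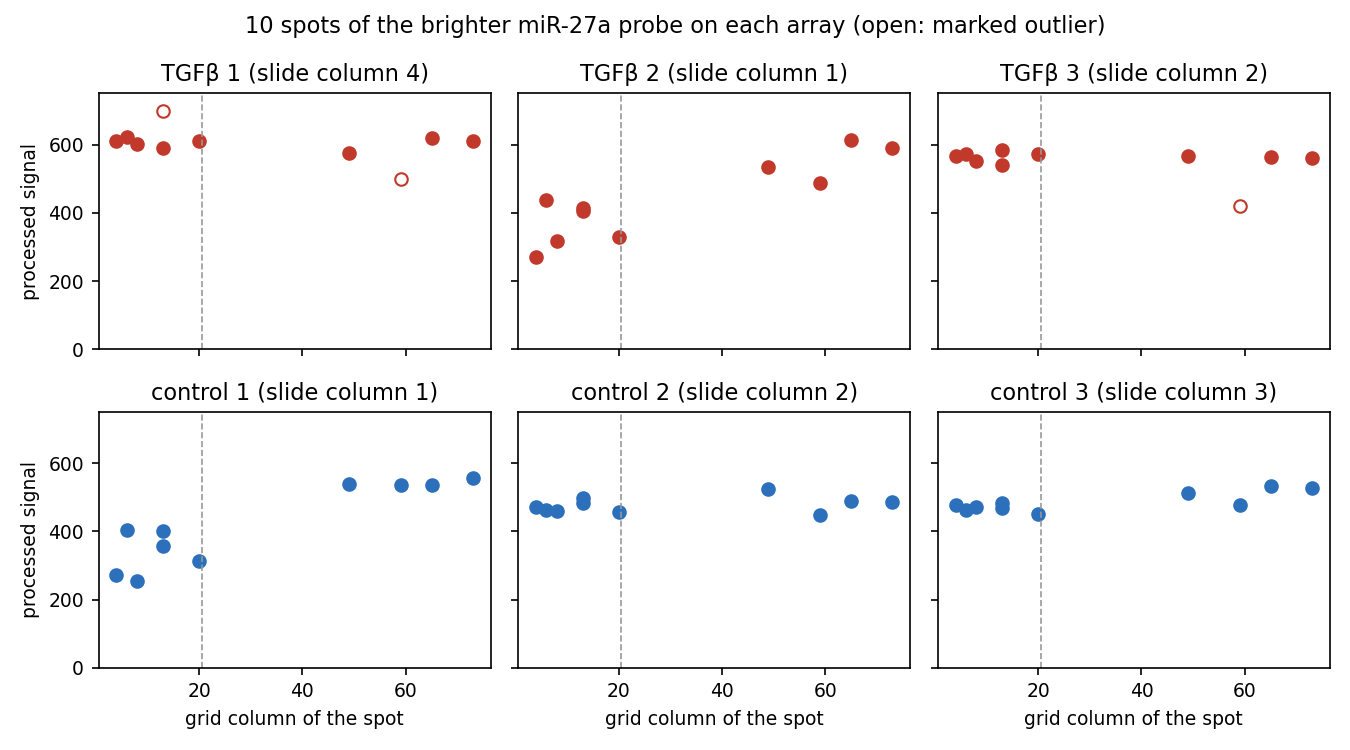
Processed signal (vertical axis, from 0) of the 10 spots of the brighter miR-27a probe against their grid column (horizontal axis) on the 3 TGFβ arrays (top) and the 3 control arrays (bottom), with open circles for spots marked as outliers and a dashed line after column 20. On TGFβ 2 and control 1 the 6 spots left of the line average 362 and 334, below the other 4 spots, and on the other arrays the sides are closer, 469 against 512 on control 3 being the widest gap.

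Values differed between the slide columns that held an array of each group, and control 1 was in one of them. Within the column shared by TGFβ 2 and control 1 (column 1) the difference was 0.021 for miR-27b, 0.24 for miR-23b, 0.069 for miR-24, -0.098 for miR-27a and 0.32 for miR-23a. Within the column shared by TGFβ 3 and control 2 (column 2) it was -1.25 for miR-27b, -0.67 for miR-23b, -0.46 for miR-24, -0.091 for miR-27a and -0.10 for miR-23a. The ratio of miR-23b over miR-23a was lower on the TGFβ array in both columns, by -0.083 in column 1 and -0.57 in column 2, while miR-27b over miR-27a changed by 0.12 in column 1 and -1.16 in column 2. Slide columns 3 and 4 held 1 array each. Slide row 1 held the 3 controls and TGFβ 1, and row 2 only TGFβ 2 and TGFβ 3, so with the row as a block each difference rests on TGFβ 1 against the controls. That fit called 3 of 84 in limma (3.57%), of which 0 were members.

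The passenger arms gave no further reading of the clusters. Of 6 listed, 4 were on the array (miR-24-1*, miR-24-2*, miR-27a* and miR-27b*), and 0 of these 4 were well above background on any array, with 6 of 480 spots well above background in all. No fold is given for them. Since miR-24-1* and miR-24-2* come from different clusters, they could have told the sources of miR-24 apart, but not at this signal.

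The non-members most like each member across the 6 arrays were found by Pearson correlation among 65 non-members well above background on all arrays, as a description of these arrays. For miR-27b they were miR-130a (0.99), miR-30a (0.96) and let-7g (0.96), and for miR-23b miR-342-3p (0.99), miR-107 (0.98) and miR-10b (0.96). miR-24, which neither cluster owns, was nearest to miR-130a (0.995), miR-652 (0.99) and let-7g (0.99). Its correlation was 0.99 with miR-27b, 0.90 with miR-23b, 0.72 with miR-23a and 0.68 with miR-27a. miR-27a was nearest to miR-140 (0.98), miR-345-5p (0.96) and miR-361 (0.89), and miR-23a to let-7f (0.85), miR-107 (0.83) and miR-103 (0.82). All these values share the scaling of the arrays. For miR-27b, miR-23b, miR-24 and miR-27a, controls 2 and 3 lay above the other 4 arrays, and for miR-23a they did not both do so.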

How the data were processed

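Per the file headers, the deposited values are spot intensity after background subtraction in Agilent Feature Extraction 10.7.3.1, with spatial detrending and no scaling across arrays. Version 10.1.1 stands in the submitters' processing notes, and which one applies is unresolved. A value table of all arrays matched these intensities (0 differences). No spot was saturated. The 75th percentile was taken over 105 probes well above background (at least 0.5 of their spots) on all arrays. Outlier-marked spots were left out, a floor of 1 was set, and miRNAs well above background on all 3 arrays of a group were tested with limma 3.58.1 in R 4.3.3 (Benjamini-Hochberg adjustment, threshold 0.05). The code was first run on simulated data with even spread and no deviating array, unlike these arrays. Without an array, scaling and filter were recomputed. Alternatives changed the scaling, background correction (normexp on median signal, offset 50), probe summary, spots, filter, floor, variance model, weights, blocks and arrays. Ratios had two-sided exact permutation tests over arrays. Same-numbered arrays deviated together (correlations of deviations 0.38, 0.37 and 0.52 over the 84 miRNAs, from the data and not from the labels), so the replicate block is given where it changes a count. Apart from the 5 members, the naming rule took their passenger arms, miR-128, any same-seed miRNA on the array and the 3 most similar non-members of each. Members and lists were chosen with earlier results of these data known. Plots used matplotlib 3.10.9 (Python 3.11.15).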

Additional observations from a re-analysis of the deposited data

How the results depend on the processing

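The number of arrays limits precision, and the dimmer probes of miR-27b and miR-23b give no reading. With all 6 arrays miR-27b and miR-23b stayed lower in TGFβ-treated cells under all alternatives run except within slide column 1 (0.021 and 0.24), where miR-24 was 0.069 and miR-23a 0.32. Their size varied: miR-23b was -0.22 (SE 0.39) with the slide column as a block and -0.11 without scaling, and miR-27b was -0.34 (SE 0.52) with the slide row as a block, -0.37 with normexp and -0.28 without scaling. With array weights miR-23b (-0.70), miR-27b (-1.08) and miR-24 (-0.41) passed in limma, among 45 called, though the weights did not fully converge. Such weights count an array less the more it departs from its group, and the values lie near those without control 1. miR-23a, miR-27a and miR-24 turned to 0.29, 0.22 and 0.12 without scaling, and to 0.32, 0.18 and 0.13 when control 1 was left out as well (20 called, none of them a member). Quantile normalization gave 0.020 for miR-23a and 0.065 for miR-27a. The slide column as a block gave 0.11 for miR-23a, and the slide row as a block 0.077 for miR-27a, with 3 miRNAs called. With the replicate block 1 miRNA was called, the member differences were the same (-0.63 for miR-27b), and it changed no other call.

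Leaving out each array in turn gave -0.75 to -0.29 for miR-23b, -1.02 to -0.40 for miR-27b, -0.19 to 0.072 for miR-23a, -0.34 to 0.060 for miR-27a and -0.38 to -0.15 for miR-24, with 0 to 31 miRNAs called. The smallest values came without control 3 for miR-23b and without control 2 for miR-27b, and the positive ends came without control 3 for miR-23a (0.072) and without control 3 (0.011) or TGFβ 2 (0.060) for miR-27a. The groups did not overlap for 12 miRNAs with all arrays, for 59 without control 1, and for 19, 22 and 21 without TGFβ 1, 2 and 3. Without control 1, miR-23b, miR-27b and miR-24 passed with TGFβ 1 also out (-0.66, -1.16 and -0.42, 35 called, with miR-27a at -0.43 not passing), with normexp (-0.52, -0.55 and -0.32, 35 called), with the brightest probe (-0.76, -1.04 and -0.40, 33 called) and without the first 20 grid columns (-0.77, -1.02 and -0.42, 29 called). With the scaling of all 6 arrays miR-23b (-0.74) and miR-27b (-1.02) passed among 29 called, and with quantile normalization miR-27b (-1.04) alone of the members among 9 called. The ratio of miR-27b over miR-23b ran from -0.58 to -0.033 over all settings. The ratio of miR-23b over miR-23a kept its sign throughout, and that of miR-27b over miR-27a was 0.12 within slide column 1. The ratio of miR-27a over miR-23a was 0.0095 within slide column 2 and -0.22 to 0.16 over the arrays left out, positive without TGFβ 2. Over the alternatives the limma adjusted p ran from 0.00472 to 0.976 for miR-27b, 0.00708 to 0.976 for miR-23b, 0.0131 to 0.976 for miR-24, 0.182 to 1 for miR-27a and 0.156 to 1 for miR-23a. The cause of these changes was not tested. The median over probes equals the mean for miRNAs with 2 probes.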
